A study of Rattus norvegicus with 6 samples.

Results

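The genes described here build and police the attachment of chromosomes to the mitotic spindle: the proteins of the centromere and kinetochore, the spindle checkpoint, the chromosomal passenger complex with Aurora B, and the mitotic kinases Aurora A and Polo-like kinase 1. They were chosen by name, as a list of 47 genes, without a cutoff on their values. Earlier results of these data were known when the list was made. Of the 47 listed genes, 45 had a row under that gene name in the deposited table of 32883 genes, and Cenpq and Cenps were not analysed here. All 45 passed the filter on low counts and were among the 14670 genes tested. They were 13 genes of centromere chromatin and the inner kinetochore, 10 of the outer kinetochore, 7 of the corona, its motors and the SKA complex, 7 of the spindle checkpoint with its target, 6 of the passenger complex with the shugoshins, and the 2 kinases Aurka and Plk1.

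At each division a kinetochore assembles on every centromere, a stretch of chromatin marked by the histone variant CENP-A. An inner layer of CENP proteins sits on that chromatin and carries an outer layer that grips spindle microtubules. Checkpoint proteins gather at kinetochores that are not yet attached and hold CDC20 inactive, which delays separation of the sister chromatids, while Aurora B releases faulty attachments. Oligodendrocyte precursor cells (OPCs) are the dividing glial cells that give rise to myelin-forming oligodendrocytes, and many genes of this machinery are known to be transcribed late in the cell cycle of dividing cells.

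RNA from primary rat OPC cultures was sequenced in 2 groups of 3 libraries, cells given ZJU-37 and cells given its solvent. ZJU-37 is a small molecule described by the study as an inhibitor of RIPK1, a kinase that regulates cell death and inflammation. The ZJU-37 group received 5 µM of the compound and the DMSO group an equal volume of DMSO, both for 36 h by the labels, whereas the study's methods give a shorter treatment. Both groups came from mixed cultures of cerebral cortex of Sprague Dawley rats at postnatal day 0 and are labelled with no genetic change, and OPCs were shaken off and grown in serum-free Neurobasal medium with B27 and N2. The labels do not say which libraries came from separate animals or preparations. The study's methods call the libraries biological repeats, whereas a figure legend gives plate wells. The p-values therefore measure the spread between these libraries, which may be partly technical. Enrichment by shaking can leave other glia and more mature oligodendrocytes in a culture.

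Library totals lay between 13935865 and 24097927 counts, so that 3 counts were worth 0.124 to 0.215 CPM, counting error alone. CPM stands for the counts of a gene as parts of its library total, here corrected by TMM factors of 0.981 to 1.04. Every marker of OPCs, mature oligodendrocytes, microglia, astrocytes and neurons on the lists used was detected in all 6 libraries. The summed level of 6 OPC markers ran from 3528 to 4099 CPM in DMSO and from 4382 to 6032 CPM in ZJU-37. That of 7 markers of mature oligodendrocytes ran from 11086 to 22048 CPM in DMSO and from 4665 to 9759 CPM in ZJU-37. Microglial markers summed to between 1328 and 2265 CPM in DMSO and between 966 and 1991 CPM in ZJU-37, astrocyte markers to between 911 and 1520 CPM and between 833 and 1266 CPM, and neuronal markers to between 657 and 821 CPM and between 575 and 759 CPM. In the edgeR test, OPC markers were higher with ZJU-37 for 4 of 6 genes and lower for Sox10, and mature oligodendrocyte markers were lower for 2 of 7 genes, Myrf and Cnp (5 at an unadjusted p under 0.05, 5 with DESeq2 and 2 with limma-voom). In the same test 0 of 17 microglial, astrocyte and neuronal markers passed (1 at an unadjusted p under 0.05, and 0 with DESeq2 or limma-voom). Over all tested genes the edgeR test called 9.43% higher and 5.58% lower. With the replicate number as a block, 5 mature oligodendrocyte, 2 microglial, 3 astrocyte and 1 neuronal markers were lower and 1 astrocyte marker was higher. That block called far more genes in general, 2371 of 14670 (16.2%) higher and 2334 lower, so single marker calls under it say little. In bulk RNA, a larger share of dividing cells and more RNA of these genes in each dividing cell cannot be told apart. The part of these shifts in cell markers in the results below was not tested.

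Promoters of late cell cycle genes are known for 2 short elements, the CCAAT box and the cell cycle homology region (CHR). The RefSeq promoter windows of assembly GRCr8, which run from 250 bases before to 50 bases after a gene's start, were searched on both strands for CCAAT and for the CHR letters TTTGAA or TTCGAA. A window was matched by symbol for 39 of the 45 genes, with 2 windows for Mis12. Cenpt, Zwint, Zwilch, Aurkb, Incenp and Sgo2 were not matched. The CHR letters stood in 25 of these 40 windows, or 62.5%, against 19.7% of all 33469 windows of the same length. CCAAT stood in 20 windows, or 50%, against 37.5% of all windows. Both elements stood in 14 windows, or 35% against 7.95%, and neither in 9 windows, or 22.5% against 50.7%.

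The following stretches are shown because they are the members in which both elements lie within the 180 bases before the start, and because they include genes with large and small responses to ZJU-37. Each is given 5′ to 3′ on the gene's own strand, with capitals at each match of CCAAT (or ATTGG on the other strand) and of the CHR letters (or TTCAAA on the other strand). In Cdca8 the CHR match overlaps an ATTGG match by 1 letter, its last A.
Cdc20 (chr5:137255800-137255979, minus strand): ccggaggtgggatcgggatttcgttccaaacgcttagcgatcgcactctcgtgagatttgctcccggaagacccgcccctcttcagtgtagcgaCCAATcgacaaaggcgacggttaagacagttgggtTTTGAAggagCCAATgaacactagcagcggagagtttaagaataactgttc
Cdca8 (chr5:142483200-142483379, minus strand): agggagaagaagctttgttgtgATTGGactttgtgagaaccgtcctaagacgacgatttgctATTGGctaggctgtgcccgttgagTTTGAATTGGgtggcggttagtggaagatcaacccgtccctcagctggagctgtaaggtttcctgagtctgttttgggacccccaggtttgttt
Spc25 (chr3:74396719-74396898, minus strand): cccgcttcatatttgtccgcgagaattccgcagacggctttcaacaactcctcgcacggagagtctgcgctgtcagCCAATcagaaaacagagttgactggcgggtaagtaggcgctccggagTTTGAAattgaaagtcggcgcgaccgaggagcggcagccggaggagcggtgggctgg
Spdl1 (chr10:19798298-19798477, minus strand): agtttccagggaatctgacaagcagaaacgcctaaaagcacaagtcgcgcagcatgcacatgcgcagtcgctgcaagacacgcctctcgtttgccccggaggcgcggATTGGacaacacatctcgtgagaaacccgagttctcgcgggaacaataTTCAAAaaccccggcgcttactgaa
Bub3 (chr1:195760352-195760531, plus strand): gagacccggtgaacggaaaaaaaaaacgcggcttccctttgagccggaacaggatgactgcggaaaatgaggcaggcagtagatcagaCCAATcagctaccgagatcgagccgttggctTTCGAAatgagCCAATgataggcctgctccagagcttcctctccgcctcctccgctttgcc

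Counting the base before the start as position -1, the CHR match began at position -51 in Cdc20, -94 in Cdca8, -57 in Spc25, -25 in Spdl1 and -61 in Bub3. In the stretches of Cdc20, Cdca8 and Bub3 the CCAAT box lay on both sides of it, and in Spc25 and Spdl1 it lay only on the side away from the start. Among genes with both elements, the RNA of Bub3 rose by a log2 fold change of 0.35. The others ran from 0.83 for Cenpo to 1.39 for Cenpf, with Cdc20 at 1.22. Genes with neither element in their window ran from 0.60 for Cenpl to 1.29 for Cenpp, with Aurka at 0.94. A link between the elements and the response was not tested. A match is a description of the letters and not evidence of a bound factor.

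With ZJU-37, 43 of the 45 genes were higher than in DMSO at a Benjamini-Hochberg adjusted p under 0.05 in the quasi-likelihood test of edgeR, fitted over all tested genes, and 0 were lower. At an unadjusted p under 0.05 the counts were 44 and 0, and DESeq2 and limma-voom each called 43 higher and 0 lower. Among all tested genes the test called 9.43% higher and 5.58% lower. The median log2 fold change of the 45 genes was 1.14, a 2.20-fold difference, with the middle 50% between 0.96 and 1.22, while the median of all tested genes was -0.03 and their middle 50% lay between -0.21 and 0.17. A log2 fold change of 1 or more was reached by 28 of the called genes, against 2.79% of all tested genes, and a 1.5-fold difference by 40. The range ran from 0.15 for Mad1l1 to 1.39 for Cenpf, so none of the 45 genes rose by a log2 value of 1.5 or more. In 44 of the 45 genes each ZJU-37 library lay above each DMSO library, as in 19.0% of all tested genes, and Mad1l1 was the exception.

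**Figure D1:**
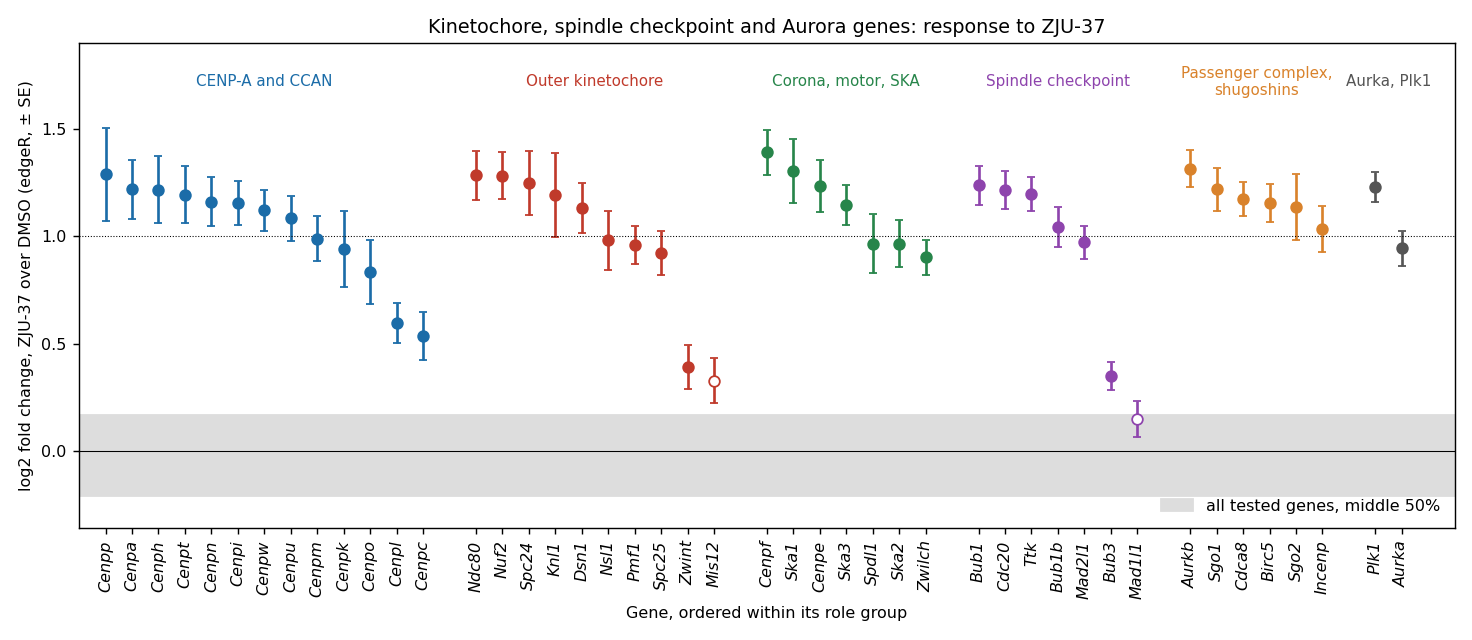
The log2 fold change of ZJU-37 over DMSO (vertical axis, edgeR estimate, whiskers ± SE) is plotted for each of the 45 genes, ordered within its role group, with filled points for an adjusted p under 0.05, a dotted line at a log2 fold change of 1 and a grey band for the middle 50% of all tested genes. Most points lie between 0.9 and 1.4, while Mad1l1, Mis12, Bub3, Zwint, Cenpc and Cenpl lie lower, and only Mad1l1 has its point inside the band.

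The 45 genes took 0.157%, 0.147% and 0.149% of all counts in DMSO replicates 1, 2 and 3 (0.151% ± 0.00504, SD, n = 3), and 0.338%, 0.271% and 0.281% in the ZJU-37 replicates (0.297% ± 0.0363, SD, n = 3). The share was higher in each treated library than in each control, and ZJU-37 replicate 1 stood above the other two. Compared within replicate numbers, the median log2 difference of the 45 genes was 1.27 in pair 1, 0.98 in pair 2 and 1.10 in pair 3. The pair of replicate 1 gave the largest difference for 32 genes, that of replicate 2 for 6 and that of replicate 3 for 7. All 45 genes were higher in pairs 1 and 3, and 44 in pair 2, where Mad1l1 showed a log2 difference of -0.00. ZJU-37 replicate 1 also had the highest summed level of OPC markers, 6032 CPM, and the part of that level in the larger differences was not tested. Without that library the median log2 fold change was 1.08 and 42 genes were called higher.

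Among the genes of centromere chromatin and the constitutive centromere-associated network, 13 of 13 rose and 8 of them reached a log2 fold change of 1, with a median of 1.12. Cenpa encodes the histone H3 variant that marks the centromere. Its level was 14.9, 14.1 and 12.6 CPM in DMSO and 38.3, 29.0 and 29.6 CPM in ZJU-37. The lowest treated library was almost 2 times the highest control, and treated replicate 1 stood above the other two. The log2 fold change of Cenpa was 1.22 ± 0.14 (SE, edgeR adjusted p = 0.00181). Cenpp, part of the CENP-O group of subunits, had the largest fold change of the network and the lowest counts of all 45 genes, at 23, 29 and 40 counts in DMSO and 68, 98 and 119 counts in ZJU-37. These were 1.68, 1.64 and 2.12 CPM against 3.68, 4.75 and 4.92 CPM, with no overlap and a log2 fold change of 1.29 ± 0.22 (SE, edgeR adjusted p = 0.00941).

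Cenpc, which ties CENP-A nucleosomes to the outer kinetochore, changed least in this group. It was measured at 35.6, 32.5 and 32.3 CPM in DMSO and 56.2, 43.4 and 45.8 CPM in ZJU-37. All treated libraries were higher and replicate 1 was well above the other two, for a log2 fold change of 0.53 ± 0.11 (SE, edgeR adjusted p = 0.0206). The call on Cenpc was lost without DMSO replicate 2 (edgeR adjusted p = 0.0806) and without DMSO replicate 3 (0.0765). Cenpl, which together with Cenpn reads CENP-A nucleosomes, rose by 0.60 on the log2 scale and Cenpn by 1.16. In the subcomplex of Cenph, Cenpi, Cenpk and Cenpm the log2 fold changes were 1.22, 1.16, 0.94 and 0.99. Cenpt and Cenpw, histone-fold proteins of which CENP-T reaches out to the NDC80 complex, rose by 1.19 and 1.12. Cenpu, which docks Plk1, rose by 1.08 and Cenpo by 0.83. Cenpk lost its call without DMSO replicate 2 (edgeR adjusted p = 0.0623) or DMSO replicate 3 (0.0603).

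In the outer kinetochore, made of the NDC80, MIS12 and KNL1 parts, 9 of 10 genes rose and 5 reached a log2 fold change of 1, with a median of 1.06. Ndc80, the microtubule-binding subunit that names its complex, was at 35.6, 32.3 and 30.9 CPM in DMSO and 93.0, 74.8 and 72.8 CPM in ZJU-37. The lowest treated value exceeded 2 times the highest control, and the log2 fold change was 1.28 ± 0.11 (SE, edgeR adjusted p = 0.000712). Its partner Nuf2 rose by the same 1.28, Spc24 by 1.25 and Spc25, which pairs with Spc24 at the inner end of the complex, by 0.92. Knl1, the scaffold on which the BUB proteins assemble, was at 16.2, 11.2 and 15.1 CPM in DMSO and 40.2, 29.0 and 28.0 CPM in ZJU-37. The groups did not overlap, but both were widely spread, and the log2 fold change was 1.19 ± 0.20 (SE, edgeR adjusted p = 0.00878).

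The 4 subunits of the MIS12 complex, which joins the inner to the outer kinetochore, moved unequally. Dsn1, Nsl1 and Pmf1 rose by log2 fold changes of 1.13, 0.98 and 0.96. Mis12 itself was at 16.3, 13.9 and 15.7 CPM in DMSO and 18.8, 20.8 and 17.9 CPM in ZJU-37. The treated libraries were all above the controls, though by less than for the other subunits, with a log2 fold change of 0.33 ± 0.11 (SE) that missed the threshold (edgeR adjusted p = 0.0902) and passed it with the replicate number as a block (0.0442). Zwint, which binds KNL1 and is also known in rat brain as a SNAP25-binding protein, was at 392, 311 and 340 CPM in DMSO and 494, 437 and 439 CPM in ZJU-37. The groups did not overlap, and the log2 fold change was 0.39 ± 0.10 (SE, edgeR adjusted p = 0.0483). The call on Zwint was close to the threshold: it was lost without DMSO replicate 2 (0.140) or 3 (0.139) and without ZJU-37 replicate 1 (0.0729), 2 (0.0611) or 3 (0.0835), while with the replicate block its edgeR adjusted p was 0.000381.

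All 7 genes of the corona, its motors and the SKA complex rose, 4 of them by at least 1 on the log2 scale, with a median of 1.15. Cenpf, a large microtubule-binding protein of the outermost layer, had the largest log2 fold change of all 45 genes. It was at 72.0, 72.6 and 65.5 CPM in DMSO and 211, 167 and 172 CPM in ZJU-37, with a log2 fold change of 1.39 ± 0.10 (SE, edgeR adjusted p = 0.000457). The controls lay close together and each treated library was more than 2 times as high. Cenpe, the kinesin motor that carries chromosomes to the spindle equator, rose by 1.24 on the log2 scale. Zwilch, a subunit of the RZZ complex that brings dynein to kinetochores, rose least, from 37.5, 32.9 and 35.5 CPM to 71.0, 64.9 and 62.1 CPM, a log2 fold change of 0.90 ± 0.08 (SE, edgeR adjusted p = 0.000759). Spdl1, the dynein adaptor also called Spindly, rose by 0.97. The subunits of the SKA complex, which holds on to shortening microtubules, rose 2.47-fold for Ska1, 1.95-fold for Ska2 and 2.21-fold for Ska3.

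Of the 7 genes of the spindle checkpoint and its target, 6 rose and 4 reached a log2 fold change of 1, with a median of 1.05. Ttk, the kinase also called MPS1 that starts checkpoint signalling, was at 33.7, 33.0 and 33.7 CPM in DMSO and 84.6, 73.7 and 72.2 CPM in ZJU-37. Bub1, the kinase recruited to KNL1, was at 38.4, 38.6 and 34.0 CPM in DMSO and 95.4, 80.2 and 86.0 CPM in ZJU-37. In both genes each treated library was more than 2 times the highest control, with log2 fold changes of 1.20 ± 0.08 for Ttk and 1.24 ± 0.09 for Bub1 (SE, edgeR adjusted p = 0.000348 and 0.00043).

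Bub1b, Mad2l1 and Bub3 form the mitotic checkpoint complex with Cdc20. Bub1b was at 44.8, 40.8 and 40.1 CPM in DMSO and 97.0, 80.5 and 81.8 CPM in ZJU-37, a log2 fold change of 1.05 ± 0.09 (SE, edgeR adjusted p = 0.000737). Mad2l1 was at 22.4, 22.6 and 23.0 CPM in DMSO and 48.0, 42.9 and 42.4 CPM in ZJU-37, a log2 fold change of 0.97 ± 0.08 (SE, edgeR adjusted p = 0.000507). In both genes the groups lay far apart relative to the spread within them. Cdc20, the activator of the anaphase-promoting complex that the checkpoint restrains, was at 65.5, 64.1 and 60.9 CPM in DMSO and 166, 135 and 142 CPM in ZJU-37. All treated libraries exceeded 2 times the highest control, and the log2 fold change was 1.22 ± 0.09 (SE, edgeR adjusted p = 0.00043).

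Bub3 and Mad1l1 stood apart from these. Bub3, which carries BUB1 and BUBR1 to KNL1, was at 79.2, 85.6 and 82.0 CPM in DMSO and 111, 101 and 102 CPM in ZJU-37. The groups did not overlap, with a log2 fold change of 0.35 ± 0.06 (SE, edgeR adjusted p = 0.0131) whose call was lost without DMSO replicate 3 (0.0516). Mad1l1, which anchors MAD2 at unattached kinetochores, was at 29.7, 29.9 and 30.0 CPM in DMSO and 35.6, 29.9 and 33.8 CPM in ZJU-37. Treated replicate 2 was level with the controls while the other two were higher, so the groups overlapped, and the log2 fold change of 0.15 ± 0.08 (SE) did not pass the edgeR test (adjusted p = 0.305, and 0.168 with the replicate block). The per-library values of Bub3 and Zwint are given because of their small fold changes, a choice made after the values were seen.

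The chromosomal passenger complex consists of the kinase Aurora B with INCENP, survivin and borealin, and the shugoshins protect sister chromatid cohesion at the centromere. All 6 genes rose, each by at least 1 on the log2 scale, with a median of 1.16. Aurkb, the catalytic subunit, was at 48.9, 54.7 and 47.0 CPM in DMSO and 135, 122 and 118 CPM in ZJU-37. Each treated library was more than 2 times the highest control, for a log2 fold change of 1.32 ± 0.09 (SE, edgeR adjusted p = 0.000344). Birc5, which encodes survivin, was at 33.2, 35.8 and 32.2 CPM in DMSO and 82.9, 69.4 and 73.0 CPM in ZJU-37, a log2 fold change of 1.16 ± 0.09 (SE, edgeR adjusted p = 0.000473). Incenp, the scaffold of the complex, was at 65.8, 62.1 and 58.5 CPM in DMSO and 147, 112 and 123 CPM in ZJU-37, a log2 fold change of 1.03 ± 0.11 (SE, edgeR adjusted p = 0.00142). In neither gene did the groups overlap, and the treated libraries of Incenp were the more widely spread. Cdca8, which encodes borealin, rose by 1.17, Sgo1 by 1.22 and Sgo2 by 1.14.

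Aurka encodes Aurora A, which acts on centrosomes and spindle poles. It was at 33.2, 29.6 and 35.0 CPM in DMSO and 65.7, 60.6 and 62.0 CPM in ZJU-37, a log2 fold change of 0.94 ± 0.08 (SE, edgeR adjusted p = 0.000667). Plk1, a kinase that acts at centrosomes, kinetochores and the midbody, was at 42.7, 43.4 and 42.9 CPM in DMSO and 110, 98.0 and 95.1 CPM in ZJU-37. Its control libraries lay within 1 CPM of each other and every treated library exceeded 2 times their level, for a log2 fold change of 1.23 ± 0.07 (SE) and the smallest adjusted p of the 45 genes (edgeR, 0.000285).

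**Figure D2:**
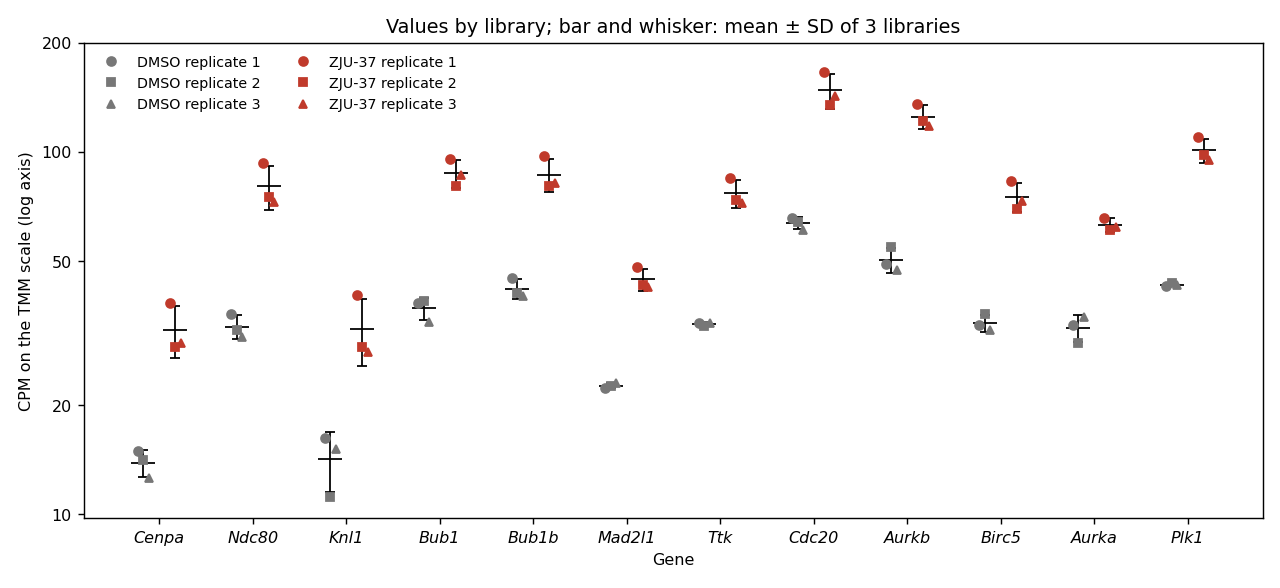
CPM on the TMM scale (vertical log axis) is plotted for 12 genes in each library, DMSO in grey and ZJU-37 in red with a symbol per replicate number, and the bar with whiskers gives mean ± SD of the 3 libraries. In each of the 12 genes the treated libraries lie above the controls, and replicate 1 is the highest treated library, as for Cdc20 at 166 CPM against 135 and 142 CPM.

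Because genes that act together at the kinetochore rose by different amounts, the ratio of CPM values was compared in 8 pairs. Among them are Aurka and Aurkb, related kinases that are not partners of 1 complex. The pairs were chosen after the values had been seen. With 3 libraries against 3 the exact permutation test (two-sided) cannot give a p under 0.1. Each pair was written with the gene of the smaller fold change first, so a fall of the ratio was set by that order. In 7 pairs the log2 ratio was lower in each ZJU-37 library than in each DMSO library. Each had this smallest p (exact permutation p = 0.1, Benjamini-Hochberg adjusted over the 8 pairs 0.114), which is not below 0.05. Since the pairs were picked from these same libraries, the ratios are a description and these p-values lend no support. The mean log2 ratio of Bub3 to Bub1 went from 1.15 ± 0.11 to 0.27 ± 0.06, that of Mad1l1 to Mad2l1 from 0.40 ± 0.01 to -0.43 ± 0.10, and that of Mis12 to Dsn1 from -1.10 ± 0.27 to -1.90 ± 0.25 (SD, n = 3). CPM is not per gene length, so such a ratio shows the change between groups and not which partner had more RNA.

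For Zwint over Knl1 the mean log2 ratio was 4.63 ± 0.16 in DMSO and 3.83 ± 0.19 in ZJU-37, and for Cenpc over Cenpa it was 1.27 ± 0.08 and 0.59 ± 0.04 (SD, n = 3). Smaller shifts were measured for Aurka over Aurkb, from -0.62 ± 0.24 to -0.99 ± 0.06, and for Spc25 over Spc24, from 0.34 ± 0.22 to -0.01 ± 0.04. The ratio of Nuf2 to Ndc80, which wind around each other in the complex, was -0.19 ± 0.12 in DMSO and -0.19 ± 0.07 in ZJU-37, and the groups overlapped (exact permutation p = 1).

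Levels of different genes were compared per gene length, in the deposited FPKM values. The median over the 45 genes was 9.85 FPKM in DMSO and 21.1 FPKM in ZJU-37. Zwint had the highest FPKM in both groups, 189 ± 21.5 in DMSO and 248 ± 20.4 in ZJU-37 (SD, n = 3). It was followed in both groups by Birc5 at 38.4 ± 2.29 and 85.5 ± 8.90 FPKM. Next in DMSO were Bub3 at 30.1 ± 1.33 FPKM, Cdc20 at 28.9 ± 1.07 FPKM, Cdca8 at 26.7 ± 1.11 FPKM and Mis12 at 24.5 ± 1.87 FPKM, and neighbours in this order differed by about 1 to 2 SD. In ZJU-37 the order after Birc5 was Cdc20 at 67.0 ± 8.13 FPKM, Cdca8 at 60.2 ± 5.56 FPKM and Plk1 at 44.8 ± 3.91 FPKM, and Bub3 was sixth at 38.2 ± 2.44 FPKM. Mis12 moved from rank 6 to rank 13, Mad1l1 from rank 17 to rank 37 and Cenpc from rank 24 to rank 34. The lowest in both groups were Cenpp, Knl1 and Sgo2, at 3.68 ± 0.52 FPKM, 3.98 ± 0.88 FPKM and 4.42 ± 0.26 FPKM in ZJU-37. Any 2 of them differed by less than 2 times the larger of their SD values.

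**Figure D3:**
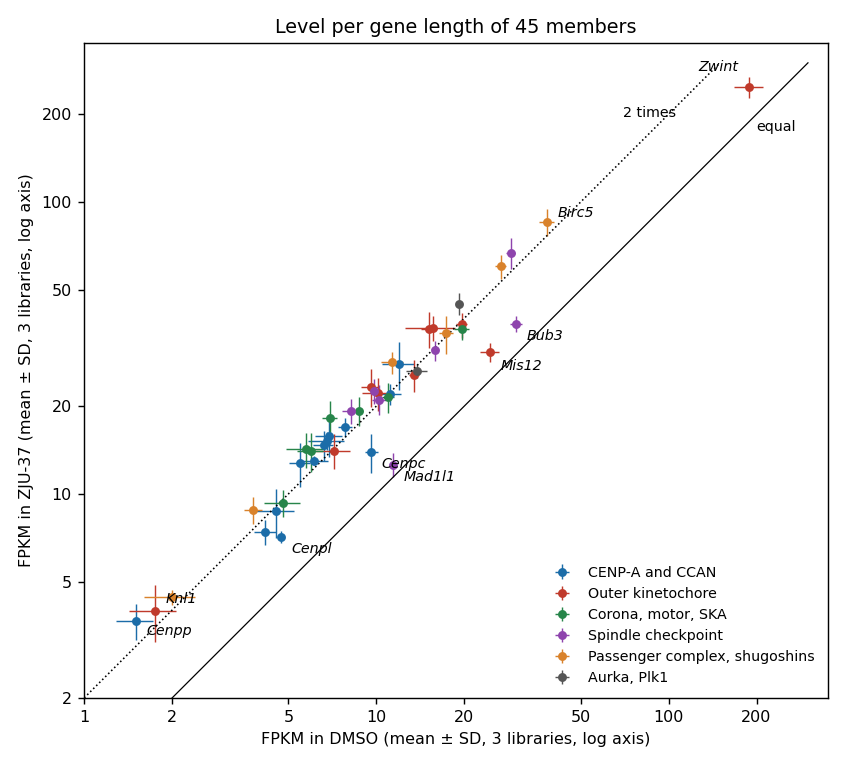
Mean FPKM in ZJU-37 (vertical log axis) is plotted against mean FPKM in DMSO (horizontal log axis) for the 45 genes, coloured by role group with whiskers of ± SD over 3 libraries, a solid line at equal levels and a dotted line at 2 times. The points follow the dotted line from Cenpp at the lower left to Birc5 at 38.4 FPKM in DMSO, while Zwint, Bub3, Mis12, Cenpc, Cenpl and Mad1l1 lie below it, nearer the line of equal levels.

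The span of 10 of the 45 genes overlaps another counted gene, and for Cenpk, Cenpn, Cenpo, Ska3 and Sgo2 that neighbour held more than 1000 counts over the 6 libraries. Whether strand was used in counting is not given in the sources used here, so values of these 5 genes are less certain. For the other 5 the neighbours held at most 52 counts each over the 6 libraries. The neighbour with 52 counts overlaps Cenpp, which itself had only 23 to 119 counts per library, so Cenpp is less certain too. Of the 5 genes with a well-covered neighbour, none fell among the 6 with the smallest fold changes.

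Genes that act with the 45 genes but were not on the list were described with the same fit. All 14 Aurora cofactors and spindle genes rose, with a median log2 fold change of 1.20, from 0.35 for Numa1, a spindle pole protein, to 1.42 for Racgap1, of the central spindle. All 8 condensin subunits rose, with a median of 0.95, from 0.43 for Ncaph2 to 1.33 for Ncapg2. The 6 MCM helicase subunits, which act in DNA replication, rose with a median of 1.14, from 0.98 for Mcm7 to 1.31 for Mcm5. The proliferation markers Mki67, Top2a and Pcna rose as well, by 1.32 for Mki67 and 0.81 for Pcna.

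Other lists around the kinetochore moved in part. Of 18 further kinetochore and checkpoint genes, 7 rose and 0 fell, also with DESeq2 (8 and 1 at an unadjusted p under 0.05), and the median log2 fold change was 0.20. The range ran from -0.26 for Aurkc, the Aurora kinase known from germ cells, which did not pass the test (edgeR adjusted p = 0.43), to 1.37 for Kif2c, a microtubule-depolymerising kinesin. Of 18 genes of the anaphase-promoting complex and its regulators, the ubiquitin ligase that CDC20 activates, 5 rose and 0 fell, also with DESeq2 (8 and 0 unadjusted), with a median of 0.13. They spanned -0.09 for the subunit Anapc7, which did not pass the test (edgeR adjusted p = 0.521), and 1.27 for Ube2c, the ubiquitin-conjugating enzyme of the complex. Of 15 genes of cohesin and separase, which hold and cut the link between sister chromatids, 7 rose and 0 fell, also with DESeq2 (10 and 2 unadjusted), with a median of 0.26. These ran from -0.22 for Esco1, which did not pass (edgeR adjusted p = 0.144), to 1.28 for Cdca5, which encodes the cohesin protector sororin. With the replicate block, 8, 7 and 9 genes of these lists rose, and 1, 0 and 1 fell. The 9.43% higher and 5.58% lower over all tested genes apply only to the edgeR counts at an adjusted p without the block. With the block, 2371 of the 14670 tested genes (16.2%) were higher and 2334 lower. DESeq2 called 1527 of 15260 genes higher and 1050 lower. A share over all genes is not given for the unadjusted counts.

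**Figure D4:**
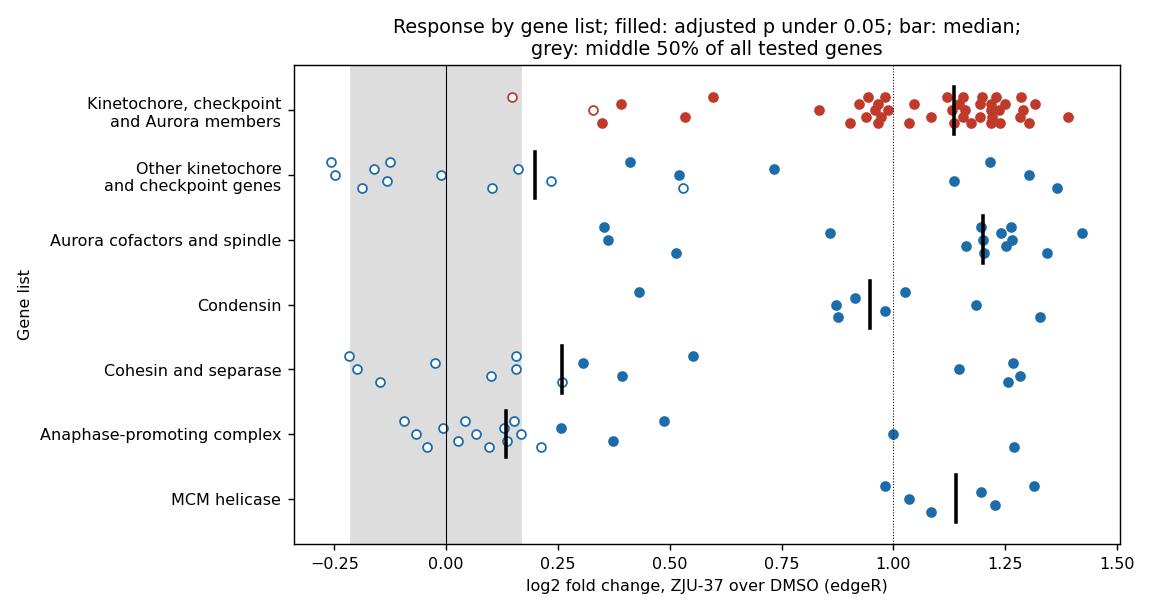
The log2 fold change of ZJU-37 over DMSO (horizontal axis, edgeR) is plotted for each gene, one row per list, with filled circles for an adjusted p under 0.05, a bar at each list's median and a grey band for the middle 50% of all tested genes. The 45 genes (median 1.14), Aurora cofactors, condensin and MCM genes lie mostly to the right of the band, whereas many cohesin, anaphase-promoting complex and other kinetochore genes lie within it.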

How the data were processed

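RNA was measured by poly-A RNA sequencing in 6 libraries from cultured rat OPCs, 3 with DMSO and 3 with ZJU-37, with groups taken from the sample labels. The authors filtered the reads and deposited raw counts per gene from featureCounts 1.5.0 in 1 table for the series. The submitters' processing notes also name HISAT2 2.0.5 and StringTie 1.3.3b, and the genome build is not given in the sources used here. The authors also deposited FPKM values per library, made from the counts and the gene length, together with group means and DESeq2 fold changes and p-values, which were not used.

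Low counts were removed with filterByExpr, TMM factors were computed, and the groups were compared over all 6 libraries with edgeR 4.0.16 in R 4.3.3 (robust glmQLFit and glmQLFTest, treatment as the only term), with Benjamini-Hochberg adjustment over 14670 genes and a threshold of 0.05. SE values were derived from each gene's F statistic. The test was tried on simulated counts first. Counts sum to between 13935865 and 24097927 per library, and libraries of a group differed by a chi-square of at least 11.3 per degree of freedom, so none was counted as a duplicate.

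Replicate numbers come from the sample titles. Across genes, which are not independent replicates, the deviations from the group mean had r = 0.455, 0.353 and 0.368 between libraries of the same number and r between -0.313 and -0.000 between the others, so the numbers were taken to pair the libraries. A blocked fit was therefore run beside the unblocked one. The labels name no sequencing batch.

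The members, the gene lists and the tests were chosen with earlier results of these data known. By the rule for named genes, every member may be named, per-library values are given for 12 genes, for the highest and lowest log2 fold change of each role group and for genes whose call changed with the block, and genes of other lists are named as the highest and lowest of their list. The result of 1 further list is not reported here. Alternatives were DESeq2 1.42.0, limma-voom (limma 3.58.1), limma on FPKM with 1 or 0.1 added before the log2, RLE, upper quartile and library size scaling, other filters, the replicate block, thinning to the smallest library, stricter thresholds and the omission of each library.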

Additional observations from a re-analysis of the deposited data

How the results depend on the processing

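Over 45 genes and 17 alternatives, 750 of 765 gene results kept their call, 14 lost it, 1 gained it and 0 reversed. The count of genes called higher was 42 or 43 under other tools, normalizations, filters and thinning, 39 to 43 when each library was left out in turn (39 without DMSO replicate 3, 40 without DMSO replicate 2), 38 at an adjusted p under 0.01, and 28 when a log2 fold change of at least 1 was also required. The count called lower was 0 throughout. The median log2 fold change was 0.98 with limma on log2(FPKM + 1), whose added constant shrinks genes of low FPKM, and otherwise 1.08 to 1.20. With the replicate block 44 genes were called higher with a median of 1.14, Mis12 was gained (edgeR adjusted p = 0.0442) and no other member's call changed, but over all tested genes the block moved the calls from 1383 to 2371 higher and from 818 to 2334 lower. With 1 library left out and fewer samples in the fit, 858 (without DMSO replicate 2) to 1259 of all genes were called higher and 374 (without ZJU-37 replicate 3) to 668 lower. Zwint lost its call under 9 alternatives, also with RLE (0.0527) and upper quartile normalization (0.0514) and with limma on log2(FPKM + 1) (0.0646) and log2(FPKM + 0.1) (0.0822). At these depths, Cenpp with 23 to 119 counts was the least precise of the 45 genes.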
